A study of Mus musculus with 24 samples.

Results

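Zbp1, Ripk1, Ripk3, Mlkl, Casp8, Fas, Fadd and Cflar, genes of necroptosis and of death receptor signaling, were followed in macrophages (BMDMs) and dendritic cells (BMDCs) grown from mouse bone marrow and treated with an agonist of STING. The genes were chosen by symbol, and all 8 were found among the 54532 genes of the expression table. DMXAA raised Zbp1, Mlkl and Cflar in both cell types and under both genotype labels. Casp8 rose in 3 of these 4 settings, Fas and Ripk3 in 2, and Ripk1 and Fadd passed the test in none. The BMDM tests left out 4 of the 12 BMDM libraries, which had low levels of macrophage markers. In a fit of all 12 without a term for the replicate number, none of the 8 genes was called in the BMDM responses.

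RNA was sequenced in 24 libraries, 3 in each of 8 groups formed by cell type, genotype label and treatment. WT libraries came from Tmem173 fl/fl mice and CRE libraries from Tmem173 fl/fl mice that also carry Lyz2-Cre ert2, a tamoxifen-activated Cre driven by a myeloid promoter, so all groups share the floxed allele and, per the series text, tamoxifen. Tmem173 encodes STING, the sensor protein that DMXAA activates in mouse cells. BMDMs were grown with the supernatant of L929 fibroblasts and BMDCs with GM-CSF and IL-4, and the cells were then left untreated or given DMXAA, per the series text at 40 µM. The study's methods give the dose per volume in another unit, so the concentration is uncertain, and the sources used here do not tie a treatment time or the age of the marrow donors to these libraries. Nothing states which libraries came from separate animals, so p-values measure only the spread between these libraries.

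Necroptosis is a lytic form of cell death. In textbook accounts, the nucleic acid sensor ZBP1 or the death receptor kinase RIPK1 binds RIPK3 through a shared motif (RHIM), RIPK3 phosphorylates MLKL, and MLKL then permeabilises the plasma membrane. Death receptors such as FAS recruit the adaptor FADD and caspase-8, which starts apoptosis and cleaves the necroptotic kinases, while the caspase-like protein cFLIP, encoded by Cflar, limits caspase-8 activity. Macrophages are known for undergoing necroptosis when caspases are blocked, and several of these genes are known interferon targets.

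Libraries held 15657347 to 18912887 counts. The 4 BMDM libraries numbered 3 stood apart from the other BMDM libraries. Their summed level over 9 macrophage markers was 42.5 to 71.6 CPM (counts scaled to the library's total), against 9701 to 21597 in the libraries numbered 1 and 2, and Adgre1, Mrc1, Fcgr1 and C1qa stayed below 1 CPM. Over 9 fibroblast markers they reached 15931 to 23178 CPM, and over 6 leukocyte markers no more than 5.15, with 5 of these 6 below 1. Among the libraries numbered 1 and 2, the fibroblast sum was 919 and 775 CPM in WT control 2 and WT DMXAA 2, and 66.8 to 133 in the other 6. BMDM tests therefore used the libraries numbered 1 and 2, and values of the libraries numbered 3 are given apart. In BMDCs the 8 dendritic cell markers summed to 6213 to 10626 CPM, and none of them stayed below 1 CPM throughout. The 9 macrophage markers summed to 2064 to 9113 CPM in the same libraries, with C1qa below 1 CPM throughout.

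Some libraries were closer to each other than their labels would set them. In BMDCs, WT 2 lay close to CRE 3 and WT 3 to CRE 1, under control and under DMXAA, with a chi-square per degree of freedom of 3.33 to 4.77 where the other 26 BMDC pairs of equal treatment gave 14.2 to 158. BMDM CRE 1 and CRE 2 lay at 3.23 in control and 4.95 under DMXAA, where BMDM WT 1 and WT 2 lay at 92.3 and 69.2. None of these pairs agreed within sampling noise, and each library was counted. That cannot tell separate replicates from libraries of 1 culture or animal, so the spread within such groups may be understated. The targeted gene Tmem173 in CRE was at 78.1% of the WT mean FPKM in control BMDMs (libraries numbered 1 and 2), 35.3% in DMXAA-treated BMDMs, and 73.4% and 73.6% in control and DMXAA-treated BMDCs. In these BMDMs the CRE mean was 9.60 FPKM in control and 9.63 under DMXAA, while the WT mean went from 12.3 to 27.3 FPKM. Under DMXAA the interferon-stimulated gene Isg15 had a mean FPKM 417-fold and 285-fold that of control in WT and CRE BMDMs, and 946-fold and 871-fold in WT and CRE BMDCs.

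The genes lie on 7 chromosomes (GRCm38): Zbp1 at chr2:173206612-173218923, Ripk1 at chr13:34002363-34037147, Ripk3 at chr14:55784995-55788865, Mlkl at chr8:111311797-111338177, Fas at chr19:34290659-34327770 and Fadd at chr7:144577318-144582463. Cflar (chr1:58711508-58758884) and Casp8 (chr1:58795374-58847503) lie near each other on the plus strand, with 36489 bases and 1 other annotated gene between them. Exons of Fadd overlap those of the antisense gene Faddos by 239 bases, and exons of Ripk1 overlap those of the pseudogene Gm17084 by 511 and of Serpinb6a on the opposite strand by 241. Whether counting used the strand is not given in the sources used here, so the levels of Fadd and Ripk1 are uncertain to that extent. RefSeq start sites (GRCm38.p6) gave 8 promoter windows for 7 of the 8 genes, each 250 bases before and 20 bases after a start. Both strands were searched for 2 short motifs. The first was 2 copies of GAAA with any 2 bases between them, the core of the interferon-stimulated response element. The second was TTCNNNGAA, the core of the gamma-activated sequence. They are present in 3.44% and 8.3% of all 32851 windows, in that order. The search ran further past the start than the 20 bases given here, in all windows alike. The windows of Cflar, Fas and Mlkl are shown because these genes differ in response below and in the letters found, with matches in capitals.
Cflar promoter, chr1:58711241-58711510, plus strand: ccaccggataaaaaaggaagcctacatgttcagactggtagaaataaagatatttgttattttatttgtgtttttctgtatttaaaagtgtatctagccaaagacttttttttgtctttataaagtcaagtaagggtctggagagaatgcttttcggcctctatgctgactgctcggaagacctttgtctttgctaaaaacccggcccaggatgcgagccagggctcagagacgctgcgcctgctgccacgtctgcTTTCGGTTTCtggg
Fas promoter, chr19:34290409-34290678, plus strand: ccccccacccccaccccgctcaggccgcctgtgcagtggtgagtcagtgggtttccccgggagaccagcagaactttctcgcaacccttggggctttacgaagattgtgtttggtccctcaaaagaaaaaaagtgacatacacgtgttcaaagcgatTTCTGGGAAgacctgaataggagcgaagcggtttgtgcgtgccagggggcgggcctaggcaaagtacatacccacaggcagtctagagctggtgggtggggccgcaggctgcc
Mlkl promoter, chr8:111338186-111338455, minus strand: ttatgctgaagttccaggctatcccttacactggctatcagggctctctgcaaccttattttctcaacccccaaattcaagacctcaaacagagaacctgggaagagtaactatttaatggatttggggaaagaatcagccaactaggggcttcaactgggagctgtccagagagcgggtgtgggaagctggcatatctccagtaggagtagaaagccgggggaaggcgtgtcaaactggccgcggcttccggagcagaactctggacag
The match in Cflar is the paired GAAA read on the other strand, at bases 7 to 16 after the start. Fas holds TTCNNNGAA at bases -93 to -85, and the Mlkl window holds neither. A second start of Ripk1 holds GAAATCGAAA at bases -5 to 5 and TTCCCGGAA at bases -108 to -100 and -11 to -3. The windows of Ripk3, Casp8 and Fadd hold neither motif.

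**Figure D1:**
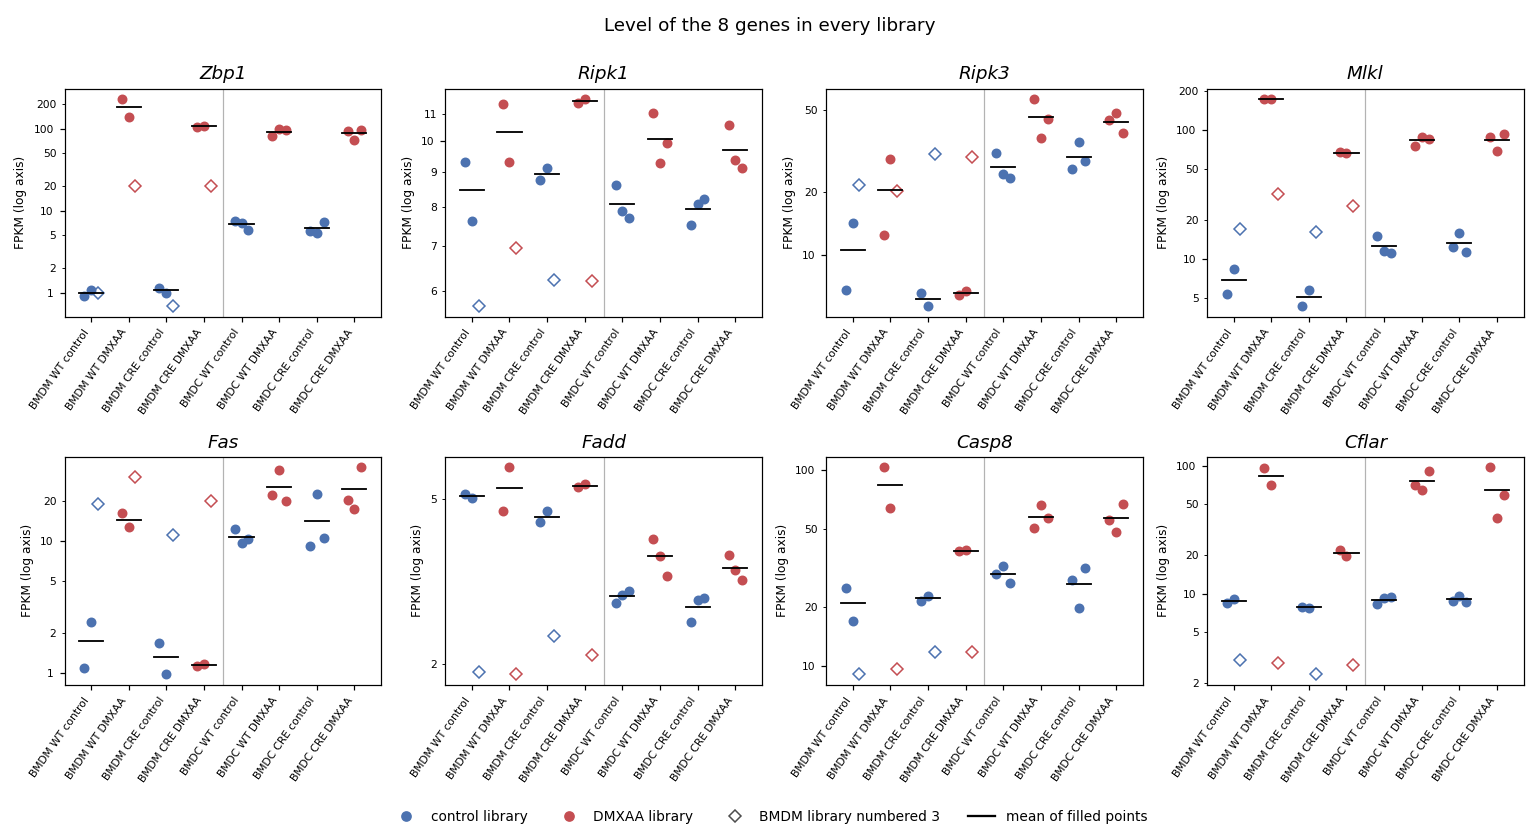
FPKM (log axis) of each gene in all 24 libraries by group, with 1 point per library, open diamonds for the BMDM libraries numbered 3 and a bar at the mean of the filled points. Zbp1 in the BMDM libraries numbered 1 and 2 goes from about 1 FPKM in control to 105 to 232 FPKM under DMXAA, with 19.8 and 20.3 FPKM in treated libraries numbered 3, while Ripk1 and Fadd span a narrow range.

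The response to DMXAA was compared with control within each cell type and label. In WT BMDCs 6 of the 8 genes rose and none fell, and 17% of the 12126 genes tested were called higher in this comparison. In CRE BMDCs 5 of 8 rose, where 14% of all genes did. In WT BMDMs 5 of 8 rose, where 18.4% of 11569 genes did, and in CRE BMDMs 3 of 8 rose, where 7.28% did. None of the 8 genes fell in any of these comparisons. A gene was called at a Benjamini-Hochberg adjusted p under 0.05 in edgeR's quasi-likelihood test over all genes, and all 8 genes passed the low-value filter in each fit.

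**Figure D2:**
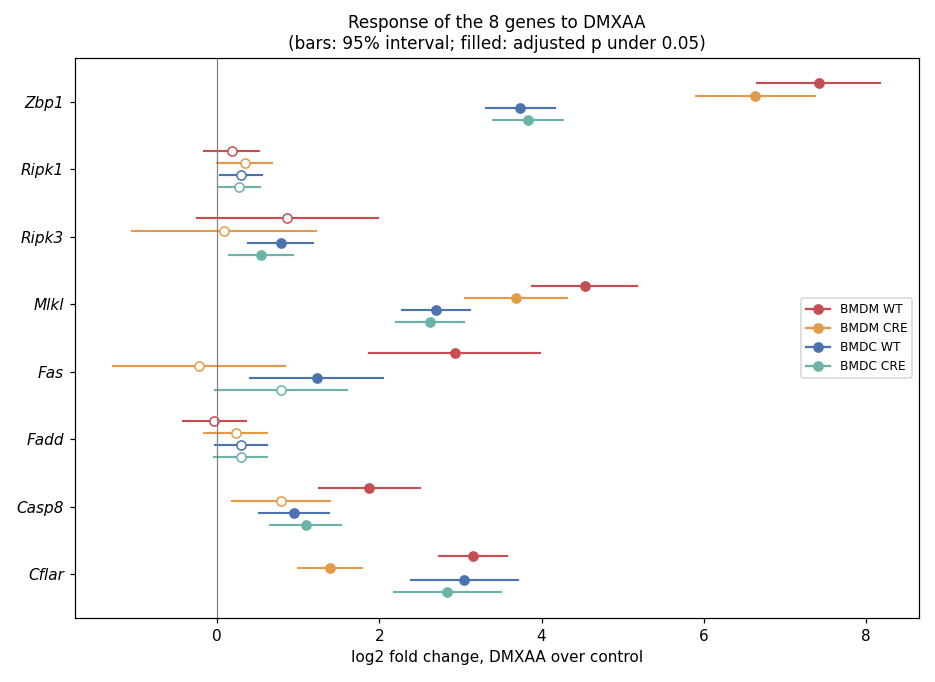
Log2 fold change of DMXAA over control for each gene in WT and CRE BMDMs (2 libraries a group) and WT and CRE BMDCs (3 libraries a group), with 95% intervals and filled points where the adjusted p is under 0.05. Zbp1, Mlkl and Cflar lie to the right of 0 in all 4 settings, and Fas in CRE BMDMs lies at -0.22.

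Zbp1, the sensor of Z-form nucleic acid, had the steepest response. In WT BMDMs it was at 0.902 and 1.09 FPKM in control and at 232 and 138 FPKM under DMXAA. In CRE BMDMs it was at 1.14 and 0.985 FPKM in control and at 105 and 110 FPKM under DMXAA. Every treated library lay far above every control, and both WT treated libraries lay above both CRE treated ones. The log2 fold change was 7.42 ± 0.32 (SE, n = 2 against 2, edgeR adjusted p = 2.01e-05) in WT BMDMs and 6.64 ± 0.31 (edgeR adjusted p = 6.44e-05) in CRE BMDMs. WT BMDCs held 7.45, 7.07 and 5.87 FPKM in control and 81.7, 98.9 and 95.8 FPKM under DMXAA. CRE BMDCs held 5.57, 5.31 and 7.34 FPKM in control and 95.1, 73.9 and 95.6 FPKM under DMXAA. The treated WT and CRE BMDC libraries overlapped, and their controls sat above all BMDM controls. The log2 fold change was 3.74 ± 0.20 (SE, n = 3 against 3, edgeR adjusted p = 2.77e-07) in WT and 3.84 ± 0.20 (edgeR adjusted p = 2.30e-07) in CRE BMDCs.

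Mlkl, the executioner that permeabilises the membrane, rose in the same 4 settings. WT BMDMs held 5.36 and 8.44 FPKM in control and 173 and 172 FPKM under DMXAA. CRE BMDMs held 4.35 and 5.84 FPKM in control and 67.0 and 66.4 FPKM under DMXAA. The treated groups were tight and did not overlap, with CRE at 38.6% of the WT mean. The log2 fold change was 4.53 ± 0.27 (edgeR adjusted p = 6.86e-05) in WT and 3.69 ± 0.26 (edgeR adjusted p = 0.000308) in CRE BMDMs. In WT BMDCs Mlkl went from 15.1, 11.6 and 11.2 FPKM to 75.2, 88.7 and 84.9 FPKM, and in CRE BMDCs from 12.3, 16.1 and 11.4 FPKM to 87.9, 68.8 and 92.9 FPKM. Treated libraries of both labels overlapped, and the log2 fold changes were 2.70 ± 0.19 (edgeR adjusted p = 2.48e-06) in WT and 2.63 ± 0.19 (edgeR adjusted p = 3.08e-06) in CRE.

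Ripk3, the kinase that phosphorylates MLKL, changed less. In WT BMDCs it was at 31.1, 24.6 and 23.6 FPKM in control and at 56.6, 36.8 and 45.4 FPKM under DMXAA. In CRE BMDCs it was at 25.9, 35.0 and 28.2 FPKM in control and at 44.6, 48.2 and 38.8 FPKM under DMXAA. In FPKM all treated BMDC libraries lay above all BMDC controls, while in CPM the ranges overlapped within both labels. WT DMXAA 2 (72.5 CPM) lay below WT control 1 (73.7), and CRE DMXAA 3 (76.05) lay below CRE control 2 (85.2). The log2 fold changes were 0.78 ± 0.18 (edgeR adjusted p = 0.00677) in WT and 0.54 ± 0.18 (edgeR adjusted p = 0.0497) in CRE. The CRE call sits at the threshold and was lost when any of 5 of the 6 CRE libraries was left out, with an edgeR adjusted p of 0.0608 to 0.180, and it ran from 0.00520 to 0.691 over all alternatives. Ripk3 in BMDMs was spread within the WT label. WT control 1 and 2 held 6.77 and 14.3 FPKM, WT DMXAA 1 and 2 held 12.4 and 28.9 FPKM, CRE controls 6.54 and 5.65 FPKM, and treated CRE libraries 6.43 and 6.70 FPKM. The higher WT libraries in both treatments were those numbered 2, which also had the higher fibroblast marker sums, and the libraries numbered 3 held 20.4 to 30.8 FPKM of Ripk3. The part of those cells in the WT values was not tested. The WT BMDM log2 fold change of 0.86 ± 0.47 (edgeR adjusted p = 0.194) missed the threshold, although both numbered pairs showed 1.83-fold and 2.02-fold higher FPKM, and with the number as a block it passed at 0.84 (edgeR adjusted p = 0.00271, with 0.000279 to 1 over all alternatives). In CRE BMDMs the log2 fold change was 0.09, with a 95% interval of -1.05 to 1.22.

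Ripk1, the kinase shared by death receptor and necroptotic complexes, was the steadiest gene with Fadd. Its FPKM ran from 7.64 to 9.31 in the 4 BMDM controls and from 9.33 to 11.6 in the 4 treated BMDM libraries. In BMDCs it ran from 7.52 to 8.61 FPKM in the 6 controls and from 9.13 to 11.03 FPKM in the 6 treated libraries. In FPKM each numbered pair of these libraries was higher under DMXAA, by 1.11-fold to 1.41-fold. In CPM the pairs differed in direction. All WT pairs, BMDC CRE 2 and BMDC CRE 3 were lower under DMXAA, and both BMDM CRE pairs and BMDC CRE 1 were higher. The edgeR log2 fold changes of 0.18 to 0.34 passed in none of the 4 comparisons. With the replicate number as a block the change in WT BMDCs passed at 0.30 (edgeR adjusted p = 0.0490, with 0.0166 to 0.675 over all alternatives), as did that in CRE BMDMs at 0.34 (edgeR adjusted p = 0.0436, with 0.000115 to 1). Same-numbered CRE BMDM libraries did not deviate together over all genes (r = 0.03), so the block has little basis there. DESeq2 called the Ripk1 change in both labels of BMDCs (adjusted p = 0.0166 in WT and 0.0427 in CRE).

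Fas, the death receptor, separated the labels in BMDMs. WT BMDMs held 1.09 and 2.42 FPKM in control and 16.2 and 12.9 FPKM under DMXAA. CRE BMDMs held 1.68 and 0.979 FPKM in control and 1.14 and 1.17 FPKM under DMXAA, so treated CRE libraries lay within the range of CRE controls. The log2 fold change was 2.93 ± 0.44 (edgeR adjusted p = 0.00278) in WT BMDMs and -0.22 ± 0.45 (edgeR adjusted p = 0.792) in CRE BMDMs, with a 95% interval of -1.28 to 0.84. The libraries numbered 3, rich in fibroblast transcripts, held 11.2 to 30.5 FPKM of Fas. WT DMXAA 1, with the lowest fibroblast marker sum of these BMDM libraries (66.8 CPM), had the higher Fas level of the WT treated pair. In the WT control pair the order was the other way, with 2.42 FPKM in control 2 (fibroblast sum 919 CPM) and 1.09 FPKM in control 1 (133 CPM), and the part of fibroblast-like cells in the Fas levels was not tested.

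Fas in BMDCs was already present in control cells. WT BMDCs held 12.3, 9.64 and 10.3 FPKM in control and 22.1, 34.3 and 20.1 FPKM under DMXAA, without overlap. CRE BMDCs held 9.15, 22.7 and 10.5 FPKM in control and 20.3, 17.5 and 36.3 FPKM under DMXAA, where CRE 2 was lower under DMXAA than in control and the groups overlapped. The edgeR log2 fold change was 1.23 ± 0.37 (adjusted p = 0.0273) in WT and 0.79 ± 0.37 (adjusted p = 0.149) in CRE. The WT call was lost without WT control 1, 2 or 3 or without WT DMXAA 2 (edgeR adjusted p of 0.0553 to 0.111), and the CRE value was called without CRE control 2, at 1.31 (edgeR adjusted p = 0.0148, with 0.0148 to 0.776 over all alternatives). The close libraries resembled each other in Fas under DMXAA too, with 34.3 FPKM in WT 2 beside 36.3 in CRE 3 and 20.1 in WT 3 beside 20.3 in CRE 1.

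Fadd, the adaptor between FAS and caspase-8, was low throughout. The 8 BMDM libraries numbered 1 and 2 held 4.40 to 5.98 FPKM and the 12 BMDC libraries 2.52 to 4.01 FPKM. Control and treated ranges overlapped in WT BMDMs. In BMDCs every treated library of a label lay above that label's controls in FPKM, but the ranges overlapped in CPM. The edgeR log2 fold changes of 0.29 in WT (adjusted p = 0.158) and 0.29 in CRE (adjusted p = 0.186) did not pass. In WT BMDMs the value was -0.04, with a 95% interval of -0.43 to 0.35, and in CRE BMDMs 0.23 (edgeR adjusted p = 0.418).

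Casp8, the initiator caspase of this route, rose in WT BMDMs from 24.9 and 17.0 FPKM to 103 and 63.5 FPKM. In CRE BMDMs it was at 21.5 and 22.7 FPKM in control and at 38.5 and 38.97 FPKM under DMXAA. The 4 controls shared a range, and the treated CRE libraries lay between them and the treated WT libraries. The log2 fold change was 1.88 ± 0.26 (edgeR adjusted p = 0.002) in WT and 0.79 ± 0.25 (edgeR adjusted p = 0.103) in CRE BMDMs, which passed with the replicate number as a block (edgeR adjusted p = 0.00309) and by DESeq2 (adjusted p = 0.0342), with 4.31e-10 to 1 over all alternatives. That block has little basis in CRE BMDMs, where same-numbered libraries did not deviate together over all genes (r = 0.03). In WT BMDCs Casp8 went from 29.5, 32.4 and 26.6 FPKM to 50.3, 65.8 and 56.9 FPKM, and in CRE BMDCs from 27.3, 19.8 and 31.6 FPKM to 55.4, 48.3 and 66.8 FPKM. Controls and treated BMDC libraries did not overlap, at log2 fold changes of 0.95 ± 0.20 (edgeR adjusted p = 0.00381) in WT and 1.09 ± 0.20 (edgeR adjusted p = 0.00224) in CRE.

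Cflar, the inhibitor of caspase-8, started at nearly the same level in both cell types and rose further than the nearby gene Casp8. WT BMDMs held 8.43 and 9.04 FPKM in control and 97.1 and 70.9 FPKM under DMXAA. CRE BMDMs held 7.93 and 7.74 FPKM in control and 22.0 and 19.6 FPKM under DMXAA. Treated CRE libraries sat above the controls and well below the treated WT libraries, at log2 fold changes of 3.15 ± 0.18 (edgeR adjusted p = 5.05e-05) in WT and 1.39 ± 0.17 (edgeR adjusted p = 0.00378) in CRE. The CRE call was lost without either CRE control (edgeR adjusted p of 0.0656 and 0.0708). In WT BMDCs Cflar went from 8.29, 9.28 and 9.47 FPKM to 70.4, 65.2 and 91.9 FPKM, and in CRE BMDCs from 8.82, 9.67 and 8.56 FPKM to 98, 38.9 and 59.3 FPKM. The lowest treated BMDC library, CRE 2, was 4.02-fold above its own control, and the log2 fold changes were 3.05 ± 0.30 (edgeR adjusted p = 2.78e-05) in WT and 2.84 ± 0.30 (edgeR adjusted p = 5.46e-05) in CRE.

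Levels can be set beside each other per length within a library. The ratio of Cflar to Casp8 FPKM was 0.434 ± 0.136 (SD, n = 2) in WT BMDM controls and 1.03 ± 0.122 under DMXAA, and 0.355 ± 0.0197 and 0.538 ± 0.0479 in CRE BMDMs. In BMDCs it went from 0.308 ± 0.0421 (SD, n = 3) to 1.34 ± 0.318 in WT and from 0.361 ± 0.113 to 1.15 ± 0.535 in CRE. Treated libraries lay above the controls of their group in each case, and treated CRE BMDMs lay below the treated libraries of the other groups that entered the tests. Treated WT 3, which did not, was at 0.297. The ratio of Mlkl to Ripk3 rose from 0.691 ± 0.143 to 9.96 ± 5.65 in WT BMDMs and from 0.849 ± 0.261 to 10.2 ± 0.365 in CRE BMDMs, against 0.476 ± 0.00671 to 1.87 ± 0.541 in WT BMDCs and 0.447 ± 0.0372 to 1.93 ± 0.485 in CRE BMDCs. The treated WT BMDM pair differed, at 13.95 and 5.97, with the lower ratio in the library numbered 2.

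**Figure D3:**
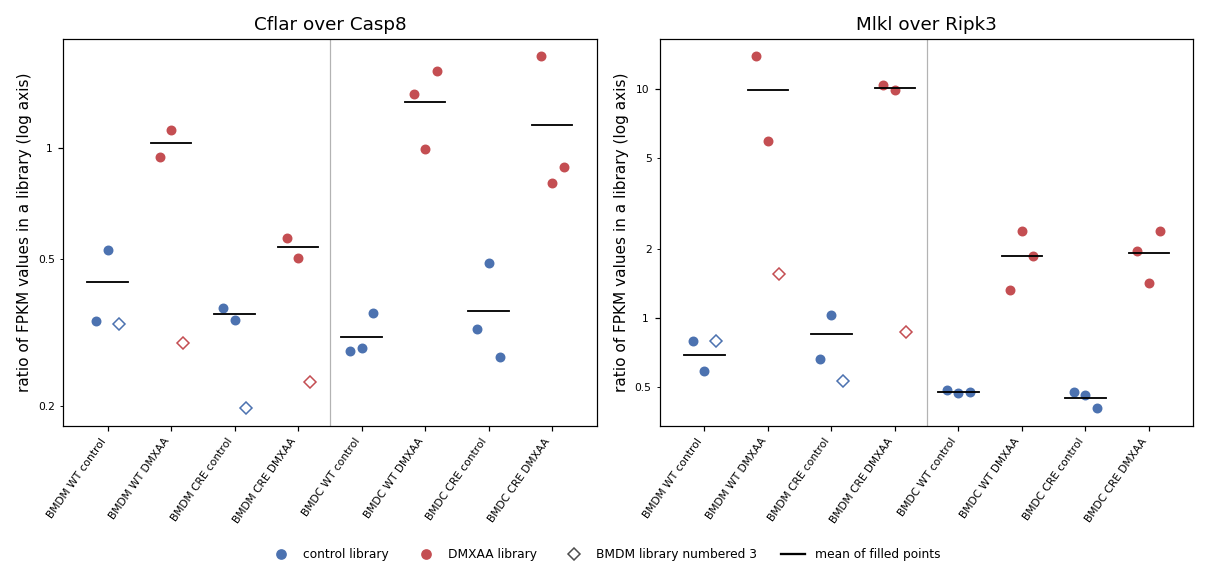
Ratio of Cflar to Casp8 and of Mlkl to Ripk3 FPKM (log axes) in each library, by group, with open diamonds for BMDM libraries numbered 3 and bars at the mean of the filled points. The Cflar to Casp8 ratio in treated CRE BMDMs (0.504 and 0.572, libraries numbered 1 and 2) lies below the filled points of the other treated groups, and the open diamond of treated WT 3 lies lower, at 0.297.

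CRE was compared with WT to ask how far the label changes these genes. Under DMXAA, 4 of the 8 genes were lower in CRE BMDMs and none was higher, where 9.99% of the 11569 genes tested were lower and 9.26% higher. Fas differed most, at -3.60 ± 0.46 (SE, n = 2 against 2, edgeR adjusted p = 0.00427), followed by Cflar at -1.96 ± 0.17 (edgeR adjusted p = 0.00138), Mlkl at -1.33 ± 0.24 (edgeR adjusted p = 0.0121) and Casp8 at -1.05 ± 0.25 (edgeR adjusted p = 0.0322). Ripk3 at -1.61 ± 0.48 (edgeR adjusted p = 0.0603) and Zbp1 at -0.73 ± 0.24 (edgeR adjusted p = 0.0762) missed the threshold and passed by DESeq2 (adjusted p = 0.00322 and 0.0147), with ranges of 3.11e-07 to 1 and 3.52e-12 to 1 over all alternatives. Ripk1 and Fadd were at 0.20 and 0.06. The calls of Fas, Mlkl and Casp8 were lost without CRE DMXAA 1 or without CRE DMXAA 2, which leaves 1 treated CRE library (1 gene called in each case), while that of Cflar held, and the call of Casp8 was also lost without WT DMXAA 1 (edgeR adjusted p = 0.0772). With the close pair of CRE libraries reduced to CRE 1 in both treatments, none of the 8 passed, although Fas stayed at -3.62 and Cflar at -1.88. With WT 2 left out in both treatments 6 of the 8 were lower in CRE, where the spread came from the close CRE pair alone.

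In control BMDMs none of the 8 genes differed between labels in edgeR, where 0.0432% of all genes were called. None had an unadjusted p under 0.05, none passed by DESeq2 or limma, and the 95% intervals of the log2 differences ran from -1.96 to 0.72. The DMXAA response itself was smaller in CRE for Fas, by -3.15 ± 0.62 (log2 difference of responses, edgeR adjusted p = 0.0469), and for Cflar, by -1.77 ± 0.23 (edgeR adjusted p = 0.02). That count of 2 of 8 stands beside 2.28% of all genes with a lower response in CRE. Values for Casp8 (-1.09), Mlkl (-0.85), Zbp1 (-0.78) and Ripk3 (-0.78) were also negative and did not pass. Both calls were lost without CRE control 1 or 2 or CRE DMXAA 1 or 2, and that of Fas without WT DMXAA 1. With the number as a block 4 of 8 passed, Ripk3 (edgeR adjusted p = 0.0454) and Casp8 (edgeR adjusted p = 0.00725) with Fas and Cflar, and over all alternatives the adjusted p of these added genes ran from 0.00840 to 1 and from 8.16e-09 to 1. With a block by number over all groups the Fas difference missed the threshold (edgeR adjusted p = 0.0581). Same-numbered CRE BMDM libraries did not deviate together over all genes (r = 0.03), which limits what the blocks add here.

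In BMDCs none of the 8 genes differed between CRE and WT under DMXAA, in control, or in the response, and 0% of 12126 genes were called in each of these 3 edgeR comparisons. None of the 8 had an unadjusted p under 0.05 in any of them, and none passed by DESeq2 or limma. Under DMXAA the 95% intervals of the log2 differences ran from -0.85 to 0.77, both bounds set by Fas, and that of Cflar from -0.82 to 0.41. In control they ran from -0.61 to 1.21, and for the difference of responses from -1.58 to 0.76. These comparisons hold the libraries of WT and CRE that lay close to each other, and the number called was also 0 with WT 2 and 3 left out and with CRE 1 and 3 left out, each leaving 1 library a group for that label.

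**Figure D4:**
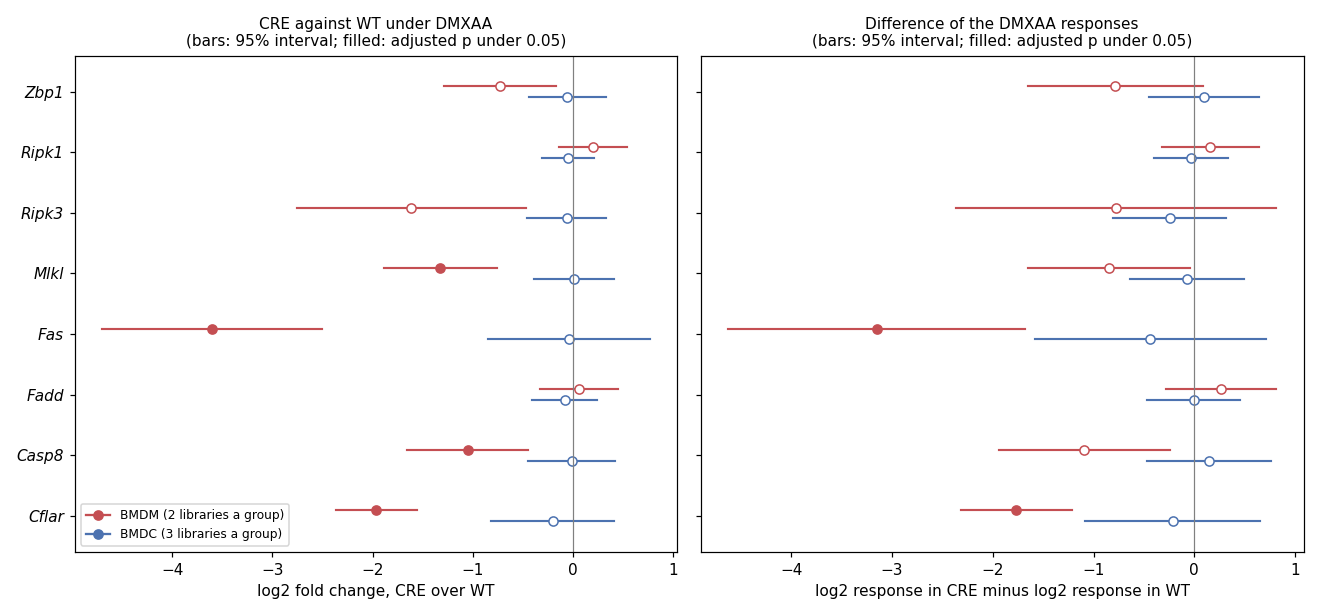
Left, log2 fold change of CRE over WT under DMXAA, and right, log2 DMXAA response in CRE minus that in WT, for each gene in BMDMs and BMDCs with 95% intervals, filled where the adjusted p is under 0.05. BMDM values of Fas and Cflar lie at -3.60 and -1.96 on the left, and all BMDC intervals include 0.

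BMDCs and BMDMs of the WT label were compared to see where the pathway starts in each cell type. In control, 4 of the 8 genes were higher in BMDCs, where 13.1% of 13368 genes were, and 1 was lower, where 15.4% were. Zbp1 differed by 2.71 ± 0.25 (edgeR adjusted p = 1.12e-06), Fas by 2.55 ± 0.47 (edgeR adjusted p = 0.000752), Ripk3 by 1.27 ± 0.33 (edgeR adjusted p = 0.00905) and Mlkl by 0.81 ± 0.22 (edgeR adjusted p = 0.011), and Fadd was lower in BMDCs by -0.86 ± 0.15 (edgeR adjusted p = 0.000439). Cflar at -0.01, Ripk1 at -0.13 and Casp8 at 0.43 did not pass. Without BMDM WT control 1 the calls of Ripk3 and Mlkl were lost (edgeR adjusted p = 0.138 and 0.178). Cell type goes with culture medium here, so these cannot be told apart, and in bulk cells a smaller share of a cell type and less RNA per cell cannot be told apart.

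Under DMXAA, Ripk3 was higher in WT BMDCs by 1.21 ± 0.33 (edgeR adjusted p = 0.0114), 1 of 8 where 15.3% of all genes were higher. Mlkl (-1.01 ± 0.21, edgeR adjusted p = 0.00171), Zbp1 (-0.95 ± 0.21, edgeR adjusted p = 0.00273) and Fadd (-0.50 ± 0.15, edgeR adjusted p = 0.0188) were lower in BMDCs, 3 of 8 where 15.3% of all genes were lower. Without BMDM WT DMXAA 1 the calls of Zbp1 and Ripk3 were lost (edgeR adjusted p = 0.116 and 0.157), and that of Fadd was lost without BMDM WT DMXAA 2 or BMDC WT DMXAA 3 (0.261 and 0.0561). The response differed between cell types for Zbp1, by -3.66 ± 0.32 (log2 response in BMDCs minus that in BMDMs, edgeR adjusted p = 2.35e-05), and for Mlkl, by -1.82 ± 0.30 (edgeR adjusted p = 0.0041), 2 of 8 where 1.73% of all genes had a smaller response in BMDCs. For Casp8 the difference of -0.91 missed the threshold (edgeR adjusted p = 0.204) and passed with the number as a block within a label (-0.90, edgeR adjusted p = 0.00414). For Cflar the difference was -0.08, with a 95% interval of -0.90 to 0.73.

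The order of the groups by mean FPKM differed among the genes. Zbp1, Mlkl, Casp8 and Cflar were highest in treated WT BMDMs, though Casp8 and Cflar there overlapped treated WT BMDCs. Ripk3 was highest in treated WT BMDCs (46.3 ± 9.93 FPKM, SD, n = 3), overlapping treated CRE BMDCs, and lowest in CRE BMDM controls. Fas was highest in treated WT BMDCs (25.5 ± 7.70 FPKM, SD, n = 3), overlapping treated CRE BMDCs, and lowest in treated CRE BMDMs (1.15 ± 0.0236 FPKM, SD, n = 2), overlapping CRE BMDM controls.

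The libraries numbered 3 gave other levels. Zbp1 went from 1.002 to 19.8 FPKM in WT 3 and from 0.682 to 20.3 FPKM in CRE 3. Mlkl went from 17.3 to 31.7 FPKM and from 16.4 to 25.98 FPKM, and Fas from 18.9 to 30.5 FPKM and from 11.2 to 20.1 FPKM. These 3 genes were higher under DMXAA in both pairs. Cflar went from 3.03 to 2.86 FPKM in WT 3 and from 2.34 to 2.76 FPKM in CRE 3, and Casp8 from 9.095 to 9.63 FPKM and from 11.85 to 11.88 FPKM, all below the BMDM libraries numbered 1 and 2 of the same group. Ripk3 was at 20.4 to 30.8 FPKM with no pair higher under DMXAA. With these libraries included in the BMDM fits and no block, none of the 8 genes was called in a comparison within BMDMs, and with a block by number within a label 1 was called in the WT and 1 in the CRE response.

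Other genes of the pathways were read from lists of death ligands and receptors, of receptor complex and ubiquitin regulators, of other RHIM and necroptosis regulators, and of caspases and downstream proteins. In WT BMDCs, where 17% of all genes rose and 15.2% fell, 7 of 12 tested ligands and receptors rose and none fell, at a median log2 fold change of 0.76 where that of all genes was 0.01. Tnfsf10, which encodes the death ligand TRAIL, rose by 6.60 (edgeR adjusted p = 5.65e-06), the lymphotoxin gene Lta by 3.52 (edgeR adjusted p = 0.00141) and Tnf by 3.21 (edgeR adjusted p = 1.33e-05). Of 21 complex and ubiquitin regulators 15 rose and none fell (median 0.74), led by Tnfaip3, a ubiquitin editor that restrains NF-kB (3.70), Traf1 (2.44) and Rnf31, the catalytic subunit of the linear ubiquitin ligase (2.36). Of 10 RHIM and necroptosis regulators 5 rose (median 0.50), led by Tlr3, a receptor for double-stranded RNA (5.40), the ubiquitin ligase gene Peli1 (3.05) and Adar, an editor of double-stranded RNA (2.23). Of 12 caspase and downstream genes 6 rose and 3 fell (median 0.34), with Daxx at 3.78 and Casp6 at -1.45. In CRE BMDCs 6 of 12, 13 of 21, 4 of 10 and 5 of 12 genes of these lists rose, in that order, where 14% of all genes did. In the last list 3 fell, where 1382 of all 12126 genes fell. No list gene was called between CRE and WT BMDCs, where 0% of all genes were.

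In WT BMDMs, where 18.4% of all genes rose and 20.7% fell, the same lists held 5 of 12 ligands and receptors higher and 1 lower, 16 of 21 regulators higher and 1 lower, 5 of 10 RHIM and necroptosis regulators higher, and 6 of 12 caspase and downstream genes higher and 1 lower. Their medians were 0.61, 1.36, 0.60 and 0.69, against -0.08 over all genes. Tnfsf10 rose by 10.44, Lta by 5.24 and Tlr3 by 5.54. In CRE BMDMs 2 of 12 ligands and receptors, 2 of 21 regulators, 5 of 10 RHIM and necroptosis regulators and 3 of 12 caspase and downstream genes rose and none fell, where 7.28% of all genes rose and 2.72% fell. Tnfsf10 there rose by 6.74, Tlr3 by 3.27 and Daxx by 3.02. Under DMXAA, CRE BMDMs were lower than WT for 5 of 12, 11 of 21, 4 of 10 and 6 of 12 genes of these lists, where 9.99% of all genes were lower, and higher for 1, 1, 0 and 0, where 9.26% were higher. Traf1 (-4.82), Tnfsf10 (-3.40), Peli1 (-2.49), Birc3, an inhibitor of apoptosis (-2.22), and Daxx (-1.76) were among those lower, and Otulin, a deubiquitinase of linear chains (1.09), was the regulator that was higher and is named after its value was seen.

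**Figure D5:**
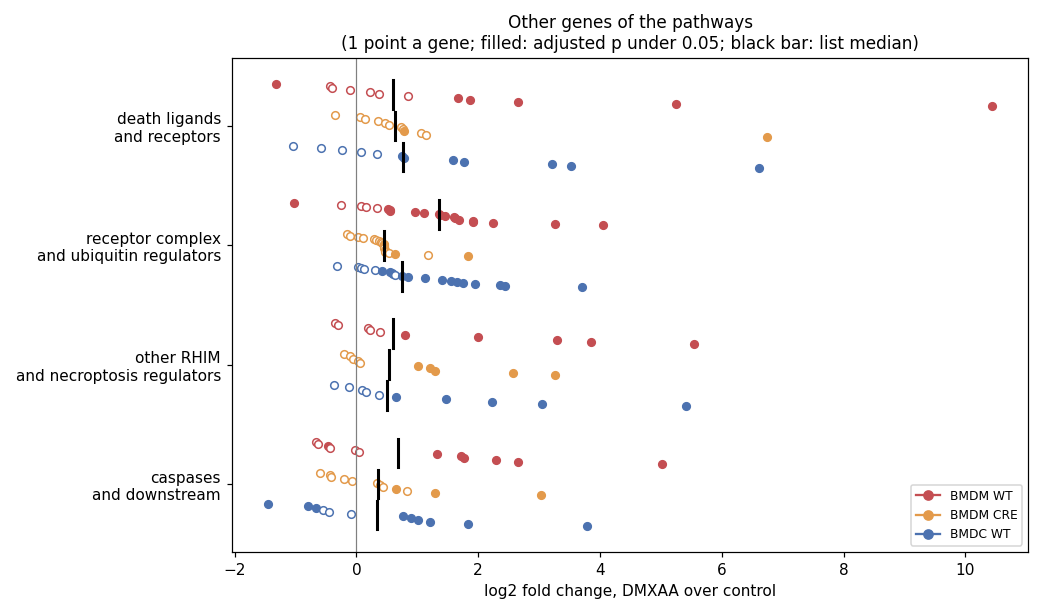
Log2 fold change of DMXAA over control for the tested genes of the 4 lists in WT BMDMs, CRE BMDMs and WT BMDCs, with 1 point a gene, filled where the adjusted p is under 0.05, and black bars at list medians. The regulators of the receptor complex have a median of 1.36 in WT BMDMs and 0.45 in CRE BMDMs.

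For each gene, the pattern over 20 libraries (without the BMDM libraries numbered 3) was compared with that of 13368 genes, by the root-mean-square distance of centred log2(FPKM + 1). Nearest to Zbp1 were Gbp7 (distance 0.39) and Gm4951 (0.57), to Mlkl Parp9 (0.29) and Nmi (0.31), and to Cflar Zup1 (0.24) and Gm5970 (0.25). Casp8 was nearest to Slc25a12 (0.16) and Irf2 (0.16), Ripk3 to Cx3cl1 (0.27) and Btg1 (0.31), and Fas to Ehd1 (0.46) and Cldnd1 (0.49). By this distance, which is not scaled to a gene's own spread, a steady gene can only lie near other steady ones. Ripk1 was nearest to Trpc4ap (0.09) and Os9 (0.10), and Fadd to Foxp1 (0.12) and Tulp3 (0.13). These distances are descriptions over libraries that share cell type and treatment.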

How the data were processed

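PolyA RNA of 24 libraries was sequenced for the study. The authors deposited 1 table of 54532 genes with raw counts per gene and with FPKM values. FPKM is scaled for length and by a library factor other than the total of counts alone. Ripk1 was at 9.31 FPKM and 87.2 CPM in BMDM WT control 1, and at 11.35 FPKM and 65.0 CPM in BMDM WT DMXAA 1. FPKM and CPM can therefore differ in the direction of a change. Per the submitters' processing notes the tools were CASAVA 1.8, fastp, HISAT2 2.0.5, featureCounts 1.5.0-p3 and DESeq2 1.20.0, with builds GRCm38 and mm10. Strandedness and annotation release are not given in the sources used here. Columns with the authors' group means, fold changes and p-values were not used. All 48 per-library columns were matched to a library by name.

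Counts were tested with edgeR 4.0.16 (R 4.3.3), TMM scaling and the quasi-likelihood F test, two-sided, adjusted by Benjamini-Hochberg over the genes that reached 1 FPKM in 3 (BMDC) or 2 (BMDM, both cell types) or more of the fitted libraries. Fits held 12 BMDC libraries (12126 genes), the 8 BMDM libraries numbered 1 and 2 (11569 genes), or these 20 (13368 genes), with 1 coefficient a group. Fitted fold changes and ratios of FPKM use different scalings. Alternatives were DESeq2 1.42.0, limma 3.58.1 on log2(FPKM + 1) or log2(FPKM + 0.1), other scaling and filters, replicate blocks and libraries left out. The routines were tested on simulated data. Libraries held 15657347 to 18912887 counts, and Fas, the sparsest of the 8 genes in the BMDM fit, had as few as 34 counts in a library.

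Control and DMXAA libraries of 1 label with the same number deviated together (r over genes of 0.40 to 0.68 in BMDCs and 0.85 to 0.96 over all BMDM libraries, but 0.66 in WT and 0.03 in CRE over those numbered 1 and 2), so blocks by number within a label were fitted. The pairing is a hint from the data, as the meaning of the numbers is not given. Over all BMDM libraries, same-numbered libraries of different labels also deviated together (0.72 to 0.96). Over the BMDM libraries numbered 1 and 2 alone they did not (-0.007 to 0.07), and in BMDCs they did not (-0.50 to 0.05).

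The 8 genes, the 4 pathway lists and the marker lists were chosen with earlier results of these data known. Named are the 8 genes and, per list and comparison, at most the 3 called genes of largest absolute log2 fold change, with Otulin as an exception. A withheld result is not reported here. Other marker lists were neutrophil (sums of 2.09 to 336 CPM over all libraries), T and NK cell (0 to 0.828) and B cell (0 to 1.3), and 8 dendritic cell markers summed to 6213 to 10626 in BMDCs, 177 to 663 in BMDMs numbered 1 and 2 and 14.2 to 71.4 in those numbered 3.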

Additional observations from a re-analysis of the deposited data

Results flagged for a closer look

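In BMDMs the response to DMXAA differed between labels for Fas (log2 difference -3.15, CRE minus WT) and Cflar (-1.77). This was edgeR's test of the difference itself, with an adjusted p of 0.0469 for Fas and 0.02 for Cflar. Both calls were lost when any single CRE library of that fit was left out. Neither gene was called with the libraries numbered 3 included and no block (Fas -0.73, Cflar -1.75). The response differed between cell types under the WT label for Zbp1 (-3.66, BMDCs minus BMDMs) and Mlkl (-1.82), by the same kind of test. These calls were also lost with the libraries numbered 3 included (Zbp1 -3.26, Mlkl -0.90).

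The BMDM libraries numbered 3, which the main BMDM tests left out, had higher levels of Zbp1, Mlkl and Fas under DMXAA than in their own control. The FPKM fold of DMXAA over control was 19.7 in WT 3 and 29.7 in CRE 3 for Zbp1, 1.84 and 1.58 for Mlkl, and 1.61 and 1.796 for Fas, with 1 library a group and no test.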

How the results depend on the processing

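Of 946 values of single genes under alternatives, 795 kept direction and call, 95 lost and 37 gained a call and 19 changed sign. None of the 545 values of a gene called in the main test changed sign. Leaving out libraries by their closeness or their fibroblast sum was chosen after seeing the data, and where 1 library a group was left, it was assumed to vary like the other groups. The cause of a change was not tested.

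Counts of the 8 genes called moved by over 1.5 times as follows. In BMDMs, CRE against WT under DMXAA (4) gave 2 at an adjusted p under 0.01, 0 with all libraries, 0 with CRE 2 left out and 1 to 5 over single libraries left out. The difference of responses between labels (2) gave 0 at an adjusted p under 0.01, 4 with no low-value filter, 0 with all libraries, 7 with WT 2 left out, 0 with CRE 2 left out and 0 to 4 over single libraries left out. The response in CRE BMDMs (3) gave 5 with only the compared groups fitted, 0 with all libraries, 5 with WT 2 left out and 1 with CRE 2 left out, and that in WT BMDMs (5) gave 0 with all libraries. In BMDCs the WT response (6) gave 2 with WT 2 and 3 left out, and the CRE response (5) gave 3 with CRE 1 and 3 left out. BMDCs against BMDMs gave 1 in control with all libraries (5 in the main test) and 3 to 5 over single libraries left out. Under DMXAA it gave 2 at an adjusted p under 0.01, 0 with all libraries (4 in the main test) and 2 to 4 over single libraries left out. The difference of responses between cell types (2) gave 0 with all libraries.

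With a replicate block within a label, 5 genes were called in the CRE BMDM response and 4 in the difference of responses between labels in BMDMs, and with a block over all groups the latter gave 1. With all libraries and a block within a label, the count was 1 in WT BMDMs, 1 in CRE BMDMs and 0 for the difference of responses. The difference of responses between cell types gave 3 with a block within a label. The block moved no other count of calls by over 1.5 times, and within a label it changed no call of a single gene other than those given with the results.

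Values that changed sign were small in the main test or rested on few libraries. Fadd in WT BMDMs (-0.04) became 0.0255 with median of ratios scaling, 0.0276 by DESeq2, 0.05003 and 0.0571 by limma, 0.0182 with only the compared groups, 0.0402 with all libraries, 0.0273 with these and a block, and ranged from -0.24 to 0.19 over single libraries left out. Fadd in CRE against WT under DMXAA (0.06) became -0.0021 with median of ratios scaling and -0.0043 by DESeq2, and ranged from -0.15 to 0.26. Fas in CRE BMDMs (-0.22) became 0.71 with all libraries and 0.25 with these and a block, and ranged from -0.57 to 0.20. Ripk3 in CRE BMDMs (0.09) became -0.0462 with CRE 2 left out and ranged from -0.0215 to 0.19. Ripk1 in the BMDM difference of responses (0.16) became -0.0024 with all libraries and -0.0414 with these and a block. Fas in CRE BMDCs (0.79) became -0.41 with CRE 1 and 3 left out.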
